A study of Mus musculus with 16 samples.

Results

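MicroRNA (miRNA) gene start sites are the annotated 5′ ends of the genes that encode miRNAs. They were taken as the rows of the methylation table whose gene symbol is Mir followed by a digit, on chromosomes 1 to 19, without the stretch chr12:109000000-110000000 that holds the miRNAs of the imprinted Dlk1-Dio3 domain. This gave 1033 of the 55471 rows, and 60 further miRNA rows of that stretch were left out. Of the 1033, 1020 were hairpins, the short folded precursors cut out of a longer transcript, and 13 were host genes of hairpins with the ending hg. In the histone table the same rule gave 483 of 43984 rows, of which 467 could be joined to the methylation rows by gene identifier.

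The study asked whether induced pluripotent stem cells (iPSCs) keep a memory of the cell they came from. It compared 2 iPSC lines made from kidney proximal tubule cells (PTC11 and PTC12) with 2 made from tail tip fibroblasts (TTF1 and TTF4). All lines came from littermates, 8 to 10 weeks old, that carried SLC34a1-GCE, tdTomato, rtTAROSA (neo-in) and also OKMS-250, in which the Slc34a1 promoter drives a tamoxifen-dependent Cre, tdTomato reports Cre activity, and doxycycline switches on the reprogramming factors once Cre has removed a neo cassette. The mice had eaten tamoxifen, the proximal tubule cells were sorted for fluorescence, and the fibroblasts, which do not use that promoter, were given Cre on an episomal plasmid, so that Cre delivery and cell origin cannot be told apart. Each line was a clone grown on feeder cells without doxycycline, and each gave 1 library of CpG methylation by nanopore sequencing and 1 each of H3K4me3 and H3K36me3 by ChIP-seq. Of the 4 H3K27me3 libraries, both from PTC lines carry the name of line PTC11, and that mark was not tested.

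Animal miRNAs are RNAs of about the length of a short oligonucleotide that pair through their seed, the bases just after the 5′ end, with messenger RNAs and lower their translation and stability. Many are carried in clusters on 1 transcript or inside the introns of a protein-coding host, so that the promoter that makes them can lie far from the hairpin. DNA methylation of CpGs at a promoter usually accompanies silence, H3K4me3 marks active or poised starts, H3K36me3 marks transcribed gene bodies, and methylation inside transcribed genes is usually high. The Mir290 to Mir295 cluster supplies most miRNA molecules of mouse embryonic stem cells and helps their fast cell cycle, and the Mir302 cluster is a hallmark of pluripotent cells of the epiblast kind.

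The seeds show why these clusters are described together. Of the members, 864 matched a RefSeq entry (GRCm38.p6) by symbol and 850 had a mature sequence there. The arms printed here, 5′ to 3′ with bases 2 to 8 in capitals, come from the Mir290 to Mir295 cluster and from the Mir302 cluster.
miR-290a-3p: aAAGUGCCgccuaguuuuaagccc
miR-291a-3p: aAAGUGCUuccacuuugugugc
miR-291b-3p: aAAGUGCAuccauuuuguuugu
miR-293-3p: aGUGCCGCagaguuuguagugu
miR-294-3p: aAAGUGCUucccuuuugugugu
miR-295-3p: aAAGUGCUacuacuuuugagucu
miR-302b-3p: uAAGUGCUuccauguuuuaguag
miR-302c-3p: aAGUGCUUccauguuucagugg
miR-302d-3p: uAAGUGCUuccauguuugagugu
miR-367-3p: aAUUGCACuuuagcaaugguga
Among members with a mature sequence in the table, the seed AAGUGCU was carried by 5, namely Mir291a, Mir294 and Mir295 of the first cluster and Mir302b and Mir302d of the second. Mir290a (AAGUGCC) and Mir291b (AAGUGCA) differed from it only in the last base of the seed, whereas Mir302c carried the same letters moved on by 1 base. Mir367 shared AUUGCAC with Mir92-1, Mir25, Mir32 and Mir92b.

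Values called mCpG are fractions of methylated CpGs that the authors averaged in windows of 300 bp within 1 kb of a start, so that a fraction of 1 means full methylation. A line is the replicate, and 1012 of the 1033 members had a fraction in all 4 lines. Neither the methylation nor the histone tables give read counts, so the depth behind each one is unknown. Over all 50657 genes with 4 values the median fraction was 0.380 (PTC11), 0.535 (PTC12), 0.370 (TTF1) and 0.769 (TTF4), which set TTF4 apart from the other 3 lines across the genome, at miRNA starts and elsewhere. Of 10 pluripotency markers, H3K4me3 had a value at 9 (PTC11), 9 (PTC12), 9 (TTF1) and 7 (TTF4), and the median fraction over the 10 was 0.0278, 0.104, 0.0932 and 0.224. Esrrb went against the others, with fractions of 0.399 to 0.747 and no H3K4me3 in any line, and Nanog was at 0.392 in PTC12 and 0.362 in TTF4. In TTF4 the starts of Zfp42 (fraction 0.803) and Dppa4 (0.759), also among these markers, were methylated and had no H3K4me3 value, against fractions of at most 0.209 and 0.103 in the other 3 lines. Of 9 fibroblast markers, H3K4me3 had a value at 2 (PTC11), 6 (PTC12), 6 (TTF1) and 4 (TTF4), and of 8 proximal tubule markers at 1, 3, 1 and 1. Neither the part of these differences between lines nor that of feeder cells in the miRNA results was tested.

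miRNA starts had a higher median fraction than other gene starts in every line. The median fraction over the 1012 members was 0.429 (PTC11), 0.585 (PTC12), 0.438 (TTF1) and 0.845 (TTF4), against 0.379, 0.533, 0.369 and 0.767 over the other genes. Fractions of 0.2 or less were held by 19.8%, 14.4%, 21.4% and 7.71% of members in those lines, where all genes had 31.5%, 25.1%, 32.6% and 14.1%. At the other end, 60.9% of members had a fraction of 0.8 or more in TTF4, where all genes had 44.8%. PTC12 had 12.2% (all genes 12.5%), TTF1 4.15% (5.425%) and PTC11 2.27% (3.00%). The share of members thus exceeded that of all genes in TTF4 only. Members with a fraction of 0.2 or less in all 4 lines numbered 65 (6.42%), as against 12.4% of all genes.

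**Figure D1:**
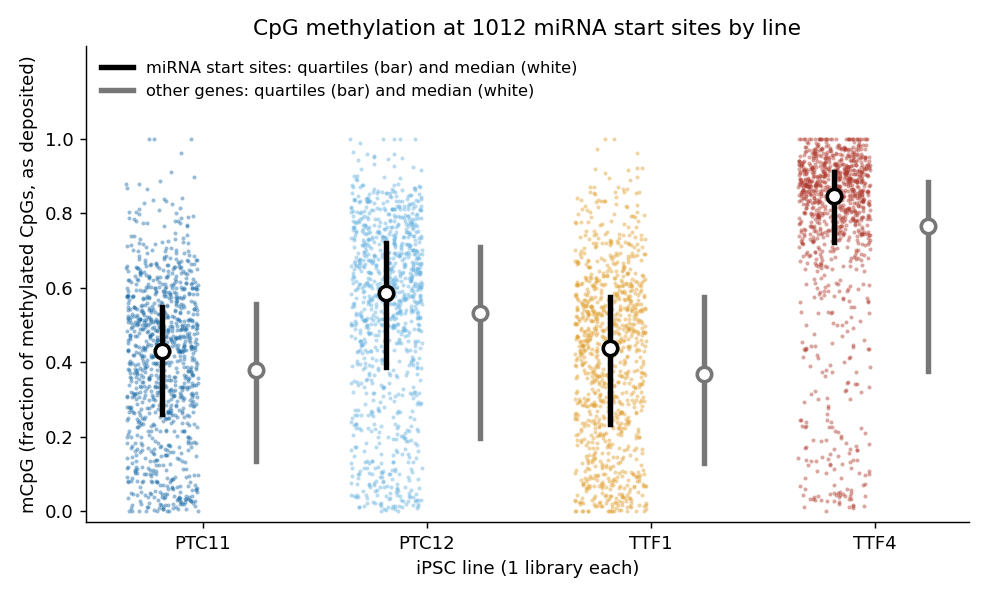
Fraction of methylated CpGs at start sites (vertical axis, 0 to 1) in each iPSC line, with 1 small point for each of the 1012 miRNA start sites with 4 values, and bars over the quartiles with a circle at the median for these (black) and for all other genes (grey). In every line the miRNA starts have the higher median, and in TTF4 the miRNA median reaches 0.845.

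TTF4 had the highest of the 4 fractions at 845 of the 1012 members (83.5%), and at 75.4% of all genes. Once the mean of each line over all genes was subtracted, which is called centring below, TTF4 was highest at 404 members (39.9%), and at 13149 of the 50657 genes. The median of TTF4 minus the mean of the other 3 lines was 0.305 at members and 0.231 over all genes before centring, and 0.0668 and -0.00689 after it. The excess of TTF4 was thus smaller once the shift of the whole line was taken off. The closest pair of lines crossed the origins: the median absolute centred difference over members was 0.118 between PTC11 and PTC12 and 0.166 between TTF1 and TTF4, whereas PTC11 and TTF1 differed by 0.103 and PTC12 and TTF1 by 0.119. TTF4 differed from PTC11 by 0.156 and from PTC12 by 0.132.

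The comparison of origins called no member, which does not show that the origins were alike. On simulated differences of 0.5 in fraction, the fit recovered 0% when each gene kept its own spread. It recovered 67.5% when every gene had the median spread of all genes. With limma on centred fractions, 0 of 1012 members had an adjusted p under 0.05 over all genes (background 0.00395% of 50657 genes), and the lowest adjusted p of a member was 0.674. At an unadjusted p under 0.05 in limma there were 29 members (2.87%), below the background of 4.72%. Of the 29, 22 had higher TTF values, a direction that was not counted over all genes. The TTF pair lay above the PTC pair at 177 members (17.5%, background 15%) and below both at 118 (11.7%, background 12.8%). That split depended on the scaling, since without centring it was 181 above and 17 below, for which no share over all genes was counted.

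Mir344d-1, one of a family near the imprinted Prader-Willi region, had the largest positive difference among members whose origins did not overlap. Its fractions were 0 (PTC11), 0.333 (PTC12), 0.640 (TTF1) and 0.682 (TTF4), a centred difference of 0.408 ± 0.150 (SE, n = 2 lines per origin). Only 9 CpGs lie within 1000 bp of its start. Next came Mir466b-5 and Mir669p-1 inside Sfmbt2, Mir692-3 and Mir6352, with differences of 0.405, 0.393, 0.404 and 0.392. Of these 4, the TTF1 fraction of Mir466b-5 (0.0833) and Mir669p-1 (0.0606) lay below that of PTC12 (0.1 at both) before centring, while TTF4 was at 1, so that before centring TTF4 alone lay above the PTC lines. Mir6352, inside Epha4, was likewise at 1 in TTF4 and at 0.133, 0.149 and 0.240 in PTC11, PTC12 and TTF1.

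Mir196a-1, which lies in the Hoxb cluster and targets Hox messenger RNAs, had the largest negative difference. Its fraction was 0.522 (PTC11), 0.623 (PTC12), 0.268 (TTF1) and 0.184 (TTF4), so both TTF lines were below both PTC lines also without centring. The centred difference was -0.434 ± 0.149 (SE, n = 2 lines per origin), with a limma adjusted p of 0.674. It was also the member with the lowest TTF4 value relative to the other lines, although TTF4 was the most methylated line in general. Mir5119, inside Cdk12, had fractions of 0.656, 0.950, 0 and 0.919 in PTC11, PTC12, TTF1 and TTF4, and a centred difference of -0.431, with TTF1 far below the other 3 lines. The differences at Mir378c, Mir344h-2 and Mir6370 were -0.387, -0.365 and -0.318, and the last 2 had 5 and 3 CpGs within 1000 bp.

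The Mir290 to Mir295 cluster was nearly free of methylation in 3 lines and showed a gradient in TTF4. Its 9 members lie at chr7:3218626-3220841 (mm10), within 2147 bp from first to last start. The gene coordinates place Mir291a to Mir295 opposite Nlrp12, and Mir290a just outside it. Over the 9 members PTC11 had fractions of 0.0191 to 0.111, PTC12 of 0 to 0.0926 and TTF1 of 0 to 0.105. In TTF4 the fraction was 0.262 at Mir290a, 0.321 at Mir291a, 0.402 at Mir292 and 0.499 at Mir291b. Further along the transcript TTF4 had 0.660 at Mir293, 0.740 at Mir294 and 0.847 at Mir295. The named TTF4 values were thus ordered from lowest to highest along the cluster, and before centring lay above those of the other 3 lines at each of the 9 members. TTF4 minus the mean of the other lines, averaged over the cluster, was 0.432 before centring and 0.194 after it, and after centring it was below 0 at Mir290a (-0.0521), Mir290b (-0.0134) and Mir291a (-0.00639). The starts share CpGs with their neighbours and are not independent.

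CpG density was lower towards the 3′ end of the same stretch, from 66 CpGs within 1000 bp of the start of Mir290a to 16 at Mir295. The 300 bp around both starts are printed from the mm10 sequence, plus strand, with each CpG in capitals. The Mir290a window, chr7:3218476-3218775, holds 12 CpGs, and the Mir295 window, chr7:3220623-3220922, holds 3.
Mir290a window: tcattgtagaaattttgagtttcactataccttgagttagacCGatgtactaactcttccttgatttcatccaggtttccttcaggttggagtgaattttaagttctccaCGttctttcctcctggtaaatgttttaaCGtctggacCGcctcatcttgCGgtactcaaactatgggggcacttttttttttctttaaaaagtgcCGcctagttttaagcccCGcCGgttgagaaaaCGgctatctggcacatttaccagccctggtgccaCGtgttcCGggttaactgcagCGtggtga
Mir295 window: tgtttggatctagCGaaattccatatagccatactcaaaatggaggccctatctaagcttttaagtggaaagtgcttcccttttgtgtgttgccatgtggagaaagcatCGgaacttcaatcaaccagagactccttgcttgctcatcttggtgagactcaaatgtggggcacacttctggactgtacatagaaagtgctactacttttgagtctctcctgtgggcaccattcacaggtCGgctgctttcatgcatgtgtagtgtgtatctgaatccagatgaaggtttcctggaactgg
H3K4me3 was listed in TTF4 at most of these members. Mir290 to Mir294 had a value in all 4 libraries, with input-subtracted RPKM of 4.15 to 4.49 in PTC11, 5.17 to 5.97 in PTC12, 5.81 to 6.94 in TTF1 and 3.71 to 4.39 in TTF4. Mir295, where TTF4 was most methylated, had H3K4me3 in PTC11 (4.15) and TTF1 (6.94) and none in PTC12 or TTF4. With limma none of the 9 differed between origins in mCpG (adjusted p of 1.00 at each).

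The Mir302 cluster, with Mir367, was low in all 4 lines, TTF4 included. Its 5 hairpins lie at chr3:127545228-127545807, opposite an intron of Larp7, with 23 to 32 CpGs within 1000 bp. At Mir302b the fraction was 0.139 (PTC11), 0.194 (PTC12), 0.138 (TTF1) and 0.123 (TTF4). At Mir302d it was 0.250, 0.198, 0.0382 and 0.124, and at Mir367 0.156, 0.210, 0.0146 and 0.137. Without centring both TTF lines were below both PTC lines at all 5 hairpins, by a small margin at Mir302b. Such members numbered 17 without centring, and the share over all genes was not counted. After centring the origins overlapped at Mir302b and Mir302c, and the TTF pair was below at the others (background 12.8%). The limma adjusted p was 1.00 at each of the 5. Their starts lie within 505 bp and share CpGs, so they are not independent. H3K4me3 over the cluster was 2.21 RPKM (PTC12), 2.88 (TTF1) and 1.99 (TTF4), with no value in PTC11. The 5 members with the shared seed AAGUGCU thus spanned a wide range in TTF4, from 0.123 and 0.124 at Mir302b and Mir302d through 0.321 at Mir291a to 0.740 and 0.847 at Mir294 and Mir295.

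**Figure D2:**
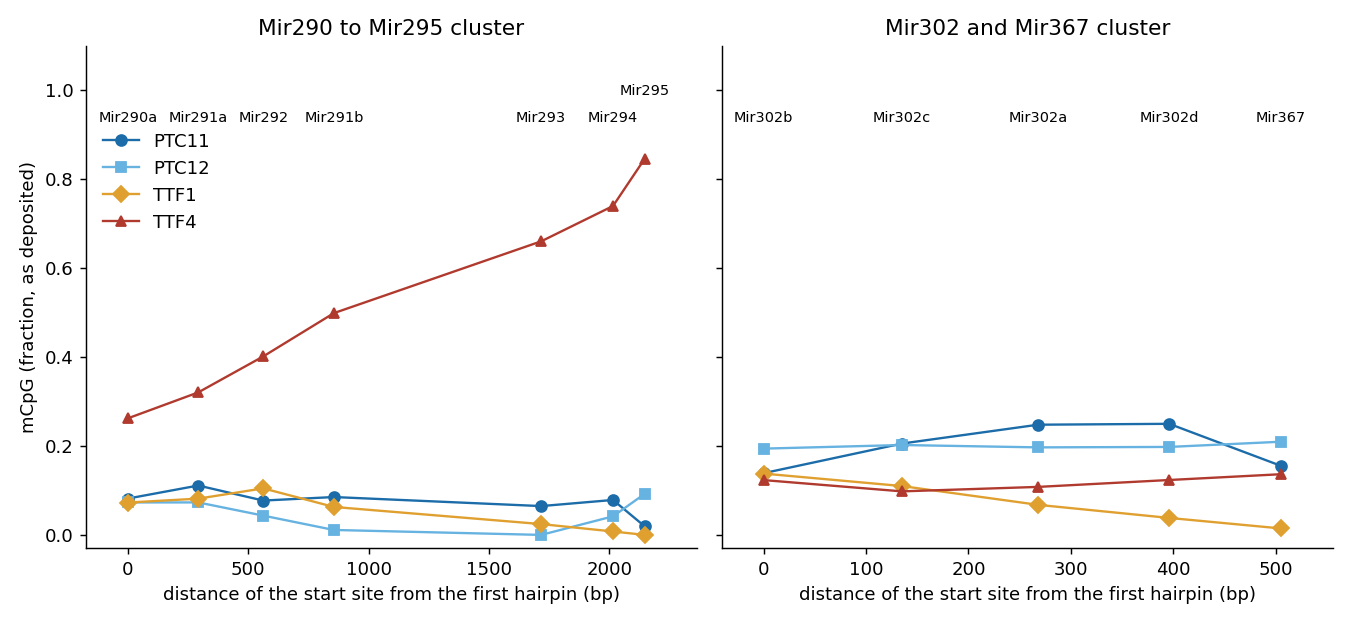
Fraction of methylated CpGs (vertical axis) at each hairpin of the Mir290 to Mir295 and Mir302 clusters against the distance of its start from the first start of the cluster in bp (horizontal axis), with 1 joined set of points per iPSC line and without the antisense hairpins Mir290b and Mir292b. TTF4 runs from 0.262 to 0.847 along the first cluster, and every line stays at or below 0.250 in the second.

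Several other members were unmethylated in 3 lines and methylated in TTF4. These classes were chosen after the values were seen. Of 123 members at 0.2 or less in PTC11, PTC12 and TTF1, 19 (15.4%) were at 0.5 or more in TTF4, against 548 of 10821 such genes (5.06%) in the whole table. Neighbours among the 19 share CpGs and are not independent, and 14 of the 19 had no fraction of exactly 0 or 1. The 19 included Mir293 to Mir295, Mir181c and Mir181d inside Nanos3, Mir130a, which acts in blood vessels, and Mir1905 opposite Mex3a. Mir1905 had fractions of 0.0881, 0.103, 0.0396 and 0.857 in PTC11, PTC12, TTF1 and TTF4 and kept H3K4me3 in TTF4 at 2.31 RPKM, the lowest of its 4 values.

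When TTF1 was left out, so that TTF4 alone stood for its origin and was assumed to vary like the other lines, limma called 29 members (2.86%, background 1.97%), of which 28 were higher in TTF4. They lay in 22 separate stretches of the genome. Mir295 had a centred difference of 0.568 ± 0.120 (SE, adjusted p = 0.000622, limma) and Mir34b one of 0.572 ± 0.135 (adjusted p = 0.0036, limma). Mir196a-1 was the single call in the other direction (-0.611 ± 0.137, adjusted p = 0.00171, limma). When TTF4 was left out instead, 2 members were called (background 0.517%), Mir5119 lower (-0.755, adjusted p = 0.0241, limma) and Mir344d-1 higher (0.522, adjusted p = 0.0479, limma) in TTF1.

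**Figure D3:**
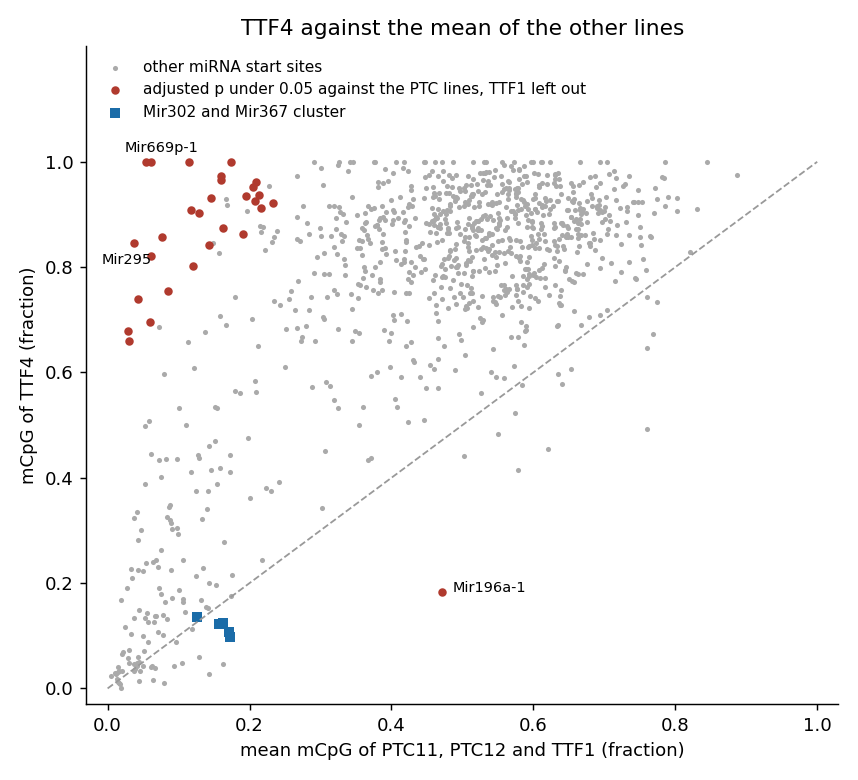
TTF4 fraction of methylated CpGs (vertical axis) against the mean fraction of the other 3 lines (horizontal axis), 1 point per miRNA start, in red where limma called it with TTF1 left out and as blue squares for the Mir302 cluster. Most points lie above the diagonal, with Mir669p-1 and Mir295 in the upper left and Mir196a-1 below the diagonal.

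H3K4me3 in TTF4 was set beside TTF4 methylation, and both classes are a description. Among members with H3K4me3 in PTC11, PTC12 and TTF1, 18 of 36 with a TTF4 fraction of 0.5 or more had a TTF4 value, as had 70 of 70 below 0.5. Over all genes the counts were 1049 of 1845 (56.9%) and 11661 of 11770 (99.1%), next to 50.0% and 100% of members. Of the members at 0.2 or less in PTC11, PTC12 and TTF1 and at 0.5 or more in TTF4, 15 were in the histone table. H3K4me3 had a value at 9 (PTC11), 10 (PTC12), 11 (TTF1) and 7 (TTF4) of these 15. The shares were 60.0%, 66.7%, 73.3% and 46.7%, next to 74.4%, 88.9%, 90.3% and 47.1% of the 442 such genes in the whole table. That class is a description too, and neighbours such as Mir293 and Mir294 share their values.

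Families whose seeds are shared between several loci gave a comparison between sites. The Mir200 family restrains Zeb1 and Zeb2 and holds cells in the epithelial state, and its members come from 2 loci. The mature forms shown here pair by seed across those loci.
miR-200a-3p: uAACACUGucugguaacgaugu
miR-141-3p: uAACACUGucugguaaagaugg
miR-200b-3p: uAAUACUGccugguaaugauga
miR-200c-3p: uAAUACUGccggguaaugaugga
miR-429-3p: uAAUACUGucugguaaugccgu
At the chromosome 6 locus Mir200c had fractions of 0.102 (PTC11), 0.313 (PTC12), 0.0224 (TTF1) and 0.931 (TTF4), and Mir141 had 0.0954, 0.223, 0.0339 and 0.908. At the chromosome 4 locus, inside Ttll10, Mir200b had 0.675, 0.665, 0.591 and 0.834. The chromosome 6 locus was thus at 0.313 or less in 3 lines and high in TTF4, whereas the chromosome 4 locus was partly methylated in every line. The loci also differ in CpG number, with 60 and 64 CpGs within 1000 bp at Mir200c and Mir141 and 25 at Mir200b. The part of CpG number in this contrast was not tested. H3K4me3 was 2.81, 4.28 and 4.22 RPKM at Mir200c and 3.34, 4.38 and 3.59 at Mir141 in PTC11, PTC12 and TTF1, and had no value in TTF4 at either.

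The Mir34 family, induced by p53 and a brake on reprogramming, showed the same contrast between its loci.
miR-34a-5p: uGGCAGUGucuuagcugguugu
miR-34b-5p: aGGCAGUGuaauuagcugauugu
Mir34b, opposite Btg4 on chromosome 9, had fractions of 0.234 (PTC11), 0.107 (PTC12), 0.140 (TTF1) and 0.965 (TTF4). Its neighbour Mir34c had 0.256, 0.189, 0.204 and 0.912. Mir34a, on chromosome 4, was at 0.557, 0.736, 0.714 and 0.962. H3K4me3 at Mir34b was 3.70 RPKM in PTC11, 4.12 in PTC12 and 2.94 in TTF1, with none in TTF4. Here TTF4 was above all other lines at all 3 genes, and the other lines differed between loci. CpG number differed too, with 80 within 1000 bp at Mir34b, 86 at Mir34c and 37 at Mir34a. Mir449c and Mir449a carry the same seed, GGCAGUG, and were at 0.0417 and 0.591 in TTF4. In PTC11, PTC12 and TTF1, Mir449c had 0.0417, 0.0712 and 0.167, and Mir449a 0.565, 0.489 and 0.267.

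The Mir17-92 cluster, which drives proliferation, has a host gene start in the table and so a promoter to set beside its hairpins.
miR-17-5p: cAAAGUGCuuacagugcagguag
miR-106b-5p: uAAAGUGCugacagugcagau
miR-92a-3p: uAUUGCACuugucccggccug
miR-25-3p: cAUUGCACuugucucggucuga
Its host, Mir17hg, had 99 CpGs within 1000 bp and fractions of 0.0188, 0.0630, 0.120 and 0.137 in PTC11, PTC12, TTF1 and TTF4. In TTF4 the hairpins downstream were at 0.564 at Mir17, 0.584 at Mir18, 0.702 at Mir19a and 0.876 at Mir20a, while over all 6 hairpins PTC11 had 0.151 to 0.175, PTC12 0.184 to 0.268 and TTF1 0.203 to 0.236. The TTF pair lay above the PTC pair at all 6 hairpins after centring (background 15%) but at 3 of 6 before it, where PTC12 was above TTF1 at Mir20a, Mir19b-1 and Mir92-1. These 6 starts lie close together and share CpGs, so they are not independent and their count cannot be weighed against the background. No share over all genes was counted without centring. In the limma test 0 of the 10 members of this cluster, its host and its paralogue Mir106b-25 were called. Mir106b, Mir93 and Mir25, which sit in Mcm7, were at 0.743, 0.801 and 0.845 in TTF4, higher than the 0.276 to 0.518 of the PTC lines. TTF1, at 0.192, 0.284 and 0.284, lay below both PTC lines at each of them.

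**Figure D4:**
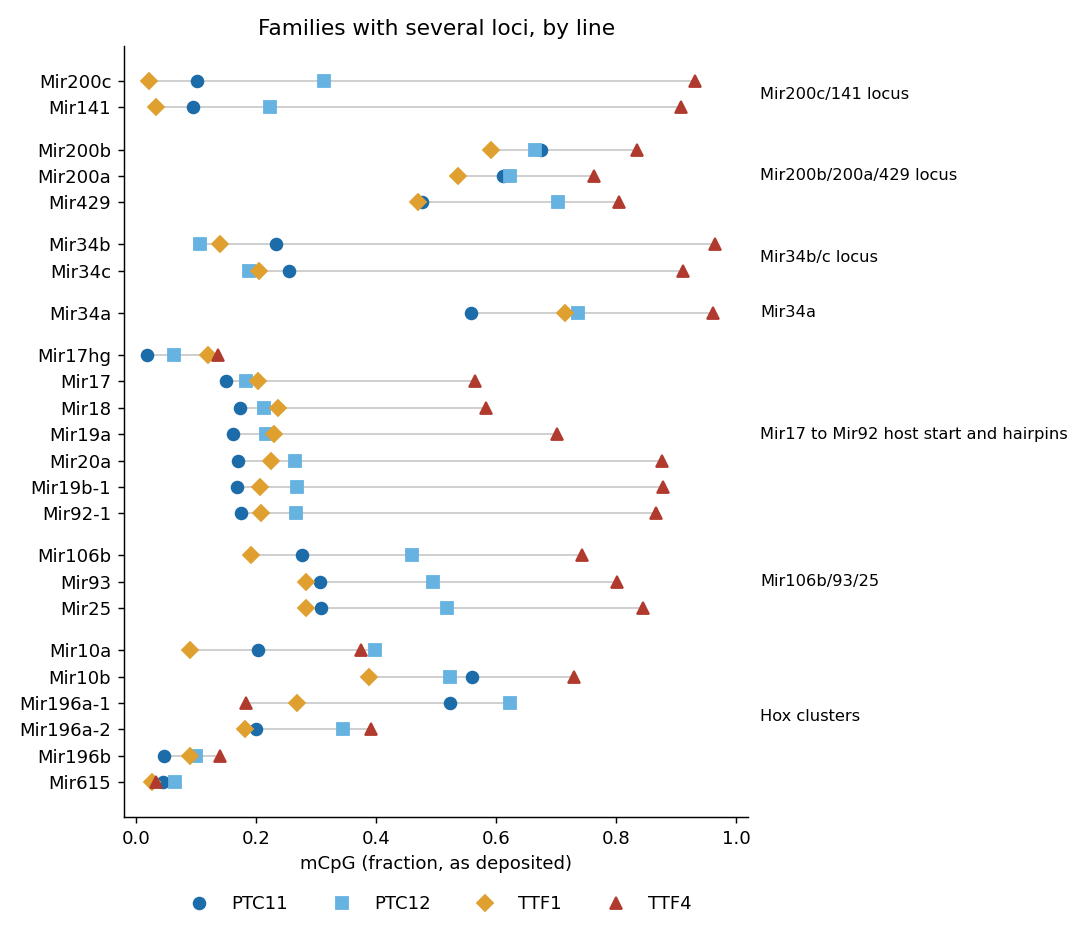
Fraction of methylated CpGs (horizontal axis, 0 to 1) at miRNA starts of the Mir200, Mir34, Mir17-92, Mir106b-25 and Hox cluster families (rows, grouped by locus), with 1 symbol per iPSC line and a grey bar over the range of the 4 lines. At Mir200c, Mir141, Mir34b and Mir34c, PTC11, PTC12 and TTF1 are at or below 0.313 and TTF4 is at or above 0.908.

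Lists of miRNAs known for a cell type gave no calls between origins, and the counts below stand beside a median centred difference of 0.0252 over all members and -0.0100 over all genes. In each list, the count of members with the TTF pair above or below the PTC pair stands beside shares of 15% above and 12.8% below over all genes, and in lists this small the counts are a description. Of 15 members known from kidney, 11 had 4 values and their median difference was -0.0128. The TTF pair lay above the PTC pair at 1 of them (background 15%) and below at 1 (background 12.8%). Mir192, enriched in kidney cortex, split by line and not by origin, with fractions of 0.247 in PTC11 and 0.168 in TTF1 but 0.675 in PTC12 and 0.902 in TTF4. Of 17 members known from fibroblasts and mesenchyme, with a median difference of 0.00157, 1 was above (background 15%) and 3 were below (background 12.8%), namely Mir199a-2, Mir22 and Mir145b. At Mir199a-2, processed from the Dnm3os transcript of mesenchyme, the fractions were 0.645 (PTC11), 0.711 (PTC12), 0.344 (TTF1) and 0.852 (TTF4), so that TTF4 lay below the PTC lines only after centring. Mir143 and Mir145a of smooth muscle and fibroblasts overlapped between origins.

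Hox cluster miRNAs had a median centred difference of -0.0924 over 6 members, with 0 above (background 15%) and 3 below (background 12.8%). Centring subtracted 0.372 (PTC11), 0.482 (PTC12), 0.379 (TTF1) and 0.649 (TTF4), so a member near 0 in every line gets a negative difference. The part of this shift in the list medians was not tested. Mir615 and Mir196b were at 0.139 or less in every line, whereas Mir196a-1 ranged from 0.184 to 0.623. The mature forms of Mir196a-1 and Mir196b share their seed.
miR-196a-5p: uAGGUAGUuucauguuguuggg
miR-196b-5p: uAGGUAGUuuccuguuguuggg
H3K27me3, the mark of Polycomb repression, had a value at members in these Hox clusters: at Mir615 it was 2.57 RPKM in the second PTC library and 1.49 in TTF1, at Mir196a-2 2.095 in the first PTC library and 1.90 in TTF1, and at Mir10a and Mir196b 2.21 and 2.77 in the second PTC library alone. TTF4 had no H3K27me3 value at any member, and only 11 genes of the whole table had one in that library.

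Of 15 neural miRNAs, 5 were at 0.2 or less in all 4 lines (6.42% of all members, 12.4% of all genes). Among them was Mir124a-3 (0.00983 to 0.0181), the main miRNA of neurons, with 189 CpGs within 1000 bp. Mir9-3 and Mir212 were also low, at 0.0387 to 0.0942 and 0 to 0.0666. Of all members with 80 or more CpGs, 91.5% (PTC11), 86.2% (PTC12), 93.6% (TTF1) and 67.0% (TTF4) were at 0.2 or less. The neural list had a median centred difference of -0.0509, with 2 above (background 15%) and 4 below (background 12.8%). Its low members carry the negative shift that centring gives to fractions near 0, as at Mir212 (-0.0750). Of 7 blood miRNAs 3 had the TTF pair above the PTC pair (background 15%) and 1 below (background 12.8%). Mir142, specific to blood cells, had 0.207, 0.191, 0.242 and 0.938 in PTC11, PTC12, TTF1 and TTF4, and Mir150 of mature lymphocytes 0.186, 0.281, 0.0148 and 0.974. Both had an H3K4me3 value in the other 3 lines and none in TTF4. Muscle miRNAs (10 members, median difference -0.0799, 1 above and 2 below, backgrounds 15% and 12.8%) had medians of 0.557, 0.757, 0.444 and 0.889 in PTC11, PTC12, TTF1 and TTF4, and 11 members at imprinted loci had a median difference of 0.0333, with 2 above and 2 below (backgrounds 15% and 12.8%).

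Hairpins near another gene start had the lowest median of the position groups in all 4 lines, and those inside a gene on the same strand the highest. Hairpins opposite a gene had a lower median than those outside genes in PTC11, PTC12 and TTF1 and a higher one in TTF4. Hairpins within 1000 bp of another gene start (148, of which 146 with 4 values) had median fractions of 0.118 (PTC11), 0.186 (PTC12), 0.127 (TTF1) and 0.422 (TTF4). Farther away, those inside a gene on the same strand (637, of which 522 in introns) had 0.464, 0.620, 0.478 and 0.870. Hairpins opposite a gene (92) and outside genes (143) had medians of 0.383 and 0.430 in PTC11 and 0.857 and 0.815 in TTF4. Members with many CpGs also had low fractions: the 94 members with 80 or more CpGs within 1000 bp had medians of 0.0455 in PTC11 and 0.135 in TTF4, and the 444 with 20 to 39 CpGs had 0.461 and 0.860. Set beside other genes with as many CpGs, the members were not higher in every group. At 20 to 39 CpGs, the largest group, they had 0.461 against 0.484 (PTC11), 0.623 against 0.650 (PTC12), 0.476 against 0.502 (TTF1) and 0.860 against 0.851 (TTF4), and at 10 to 19 CpGs they were likewise lower in those first 3 lines and higher in TTF4. At 40 to 79 CpGs they were higher in every line, at 0.332 against 0.182 in PTC11 and 0.836 against 0.470 in TTF4, while at 80 or more CpGs they were at 0.0455 against 0.0559 and 0.135 against 0.172.

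**Figure D5:**
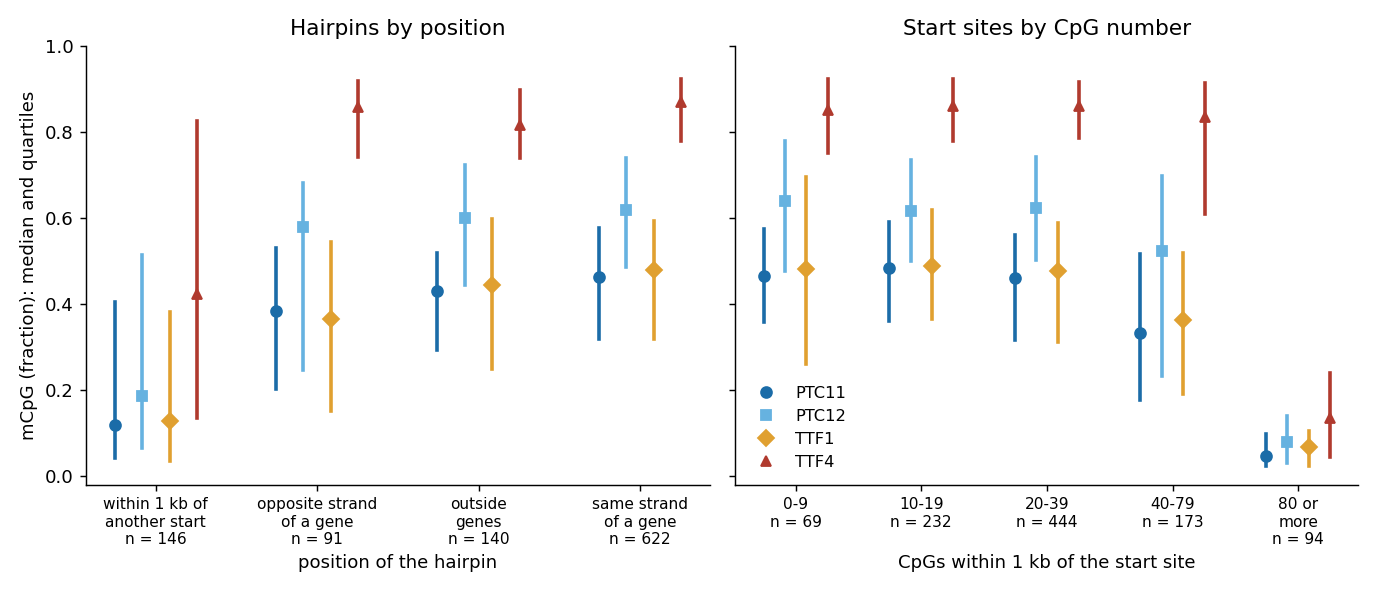
Fraction of methylated CpGs (vertical axis, 0 to 1) in each iPSC line for hairpins grouped by position in relation to other genes (left) and for miRNA starts grouped by the number of CpGs within 1000 bp (right), with a symbol at the median, a bar from the lower to the upper quartile and the number of starts under each group. Hairpins near another gene start have the lowest median in each line, and the median is lowest in members with 80 or more CpGs.

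Host gene starts differed from the hairpins they carry. For 621 hairpins set beside the start of the same-strand gene around them (510 hosts), the hairpin medians were 0.464 (PTC11), 0.620 (PTC12), 0.477 (TTF1) and 0.870 (TTF4), and the host start medians 0.120, 0.166, 0.121 and 0.226. The hairpin was the more methylated of the pair at 88.4%, 87.9%, 86.6% and 89.7% of pairs. The 13 members named as hosts varied widely: 4 were at 0.2 or less in all lines (Mir17hg, Mir22hg, Mir124a-1hg and Mir9-3hg), whereas Mir99ahg was at 0.616 to 0.854, Mir133a-1hg at 0.581 to 0.954 and Mir181a-1hg at 0.452 to 0.874. A fraction at a hairpin describes the DNA around the hairpin, which need not be the start of its transcript.

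The largest single locus lies in an intron of Sfmbt2, a Polycomb gene whose rodent-specific miRNAs are expressed in placenta. Its 71 members lie at chr2:10466663-10518279, with 11 to 24 CpGs within 1000 bp, and 64 had 4 values. Their medians were 0.521 (PTC11), 0.557 (PTC12), 0.544 (TTF1) and 0.812 (TTF4), and TTF4 was highest at 52. Single members ranged widely, from 0 to 0.680 in PTC11 and from 0.414 to 1 in TTF4. Mir466b-5, Mir669p-1 and Mir467a-5, which are neighbours, were at 0 in PTC11 and at 1 in TTF4, and 61 of all members had a fraction of exactly 0 or 1 in some line.

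H3K4me3 had a value at 102 (PTC11), 187 (PTC12), 167 (TTF1) and 104 (TTF4) of the 483 members. Members with a value in all 4 libraries (88 by identifier) had median mCpG of 0.0625, 0.0707, 0.0723 and 0.199 in PTC11, PTC12, TTF1 and TTF4. The 818 with none by identifier had 0.464, 0.626, 0.477 and 0.855. Only 532 members have an identifier in the histone table, so the 818 include members without an entry there. Of the 10 members with the highest mean level, 8 lay within 1000 bp of another gene start, while Mir294 of the Mir290 to Mir295 cluster lay 29099 bp from one. The highest was Mir1938, 53 bp from another start and inside Ifrd1, with 4.41, 7.69, 8.76 and 5.97 RPKM. With limma on log2(RPKM + 1), 0 of 83 members tested were called (background 0.481%), with 1 at an unadjusted p under 0.05 (background 0.977%). The TTF pair of libraries lay above the PTC pair at 2 (background 5.04%) and below at 5 (background 3.17%).

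H3K36me3 had a value at 224 (PTC11), 77 (PTC12), 91 (TTF1) and 53 (TTF4) members, and at 17 in all 4 libraries. Of these 17, limma called 0 (background 0.112%), with 0 at an unadjusted p under 0.05 (background 0.681%). The TTF pair lay below the PTC pair at 2 (background 3.05%) and above at 0 (background 0.452%). Mir17hg, with its hairpins Mir17 and Mir18, had 3.43, 7.99, 2.24 and 8.69 RPKM in PTC11, PTC12, TTF1 and TTF4, so that the body of this host was marked in every line, TTF4 included. Among the 17, Mir5105 stood far above the others at 145.5, 467.7, 28.9 and 272.1 RPKM in those lines, where the next highest mean was 5.588. The reason for this outlying value was not tested. Hairpins inside genes with H3K36me3 in all 4 libraries (533) had median fractions of 0.468 in PTC11 and 0.874 in TTF4, and those in genes with none (43) 0.484 and 0.839. A gene absent from the histone table also counted as having none.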

How the data were processed

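The methylation table holds, per gene, the methylated fraction of CpGs, which the authors called from nanopore reads (Guppy, minimap2 2.17-r941, mm10, Nanopolish) and averaged in windows of 300 bp, stepped by 30 bp, within 1 kb of each start. It gives no coverage. The histone tables hold RPKM that the authors deposited after alignment with Bowtie2 2.1.0, peak calling with MACS2 2.0.10 against input, counting with bedtools 2.17.0 and subtraction of input; a gene without a kept peak has no value. Tool versions are from the submitters' processing notes. No deposited column was left out.

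Origin and line came from the sample labels. Fractions were centred on the line mean, as in the study, and 1 was added to RPKM before log2. limma 3.58.1 (R 4.3.3; lmFit, eBayes with trend) was fitted to all genes with 4 values, with Benjamini-Hochberg adjustment over all of them. p-values measure the spread between clonal lines. On simulated differences at 200 genes, the fit recovered none in mCpG or H3K36me3 and a minority in H3K4me3 when each gene kept its own spread, so that a count of 0 does not show that origins were alike. CpGs were counted within 1000 bp of each start in the mm10 sequence, and positions came from the coordinates in the table. Members sharing CpGs were counted as 1 stretch when starts lay within 2000 bp; the 1033 members formed 886 stretches. Sequences are from RefSeq on GRCm38.p6. The members, the 11 miRNA lists and the marker lists were chosen with earlier results of these data known. Named genes were the members of those lists, the 5 largest positive and 5 largest negative differences among members whose origins did not overlap, the 5 highest and 5 lowest in TTF4 relative to the other lines, the 5 lowest means, the 10 highest per histone mark, and members with H3K27me3; members of the 19 methylated in TTF4 alone and those called with 1 line left out were named after their values were seen. Alternatives varied centring, scale, pseudocount, filters, the distance to another start and each line left out. Python 3.11.15 with pandas 2.3.3, numpy 2.4.6 and matplotlib 3.10.9 was used.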

Additional observations from a re-analysis of the deposited data

How the results depend on the processing

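No paired analysis was possible because the line numbers of the origins (11 and 12 against 1 and 4) are not shared. The count of members called in methylation ranged from 0 to 29 with 1 line left out (29 without TTF1 and 2 without TTF4), and was 0 under every other setting run. The median difference over members, TTF minus PTC without centring, ranged from -0.0692 without TTF4 to 0.338 without TTF1, so its sign rested on TTF4. Members with both TTF lines below both PTC lines numbered 17 without centring, and TTF4 was highest at 404 after centring. The Mir302 cluster in TTF4 lay 0.278 below the other lines after centring (-0.2783). With a distance limit of 2000 bp, same-strand minus near-start hairpins differed by 0.267 in PTC11, 0.349 in PTC12 and 0.196 in TTF4, and with hosts limited to named genes by 0.643 in TTF4. For H3K4me3 a pseudocount of 0.1 gave 1 call, Mir692-2b, near 0 in every library. Centring on the median turned the differences at Mir290a (-0.0203) and Mir291a (-0.00134). With 1 line left out, the difference ranged from -0.0563 (without PTC12; -0.0376 without TTF1) to 0.0622 at Mir290a, from -0.0107 (without PTC12) to 0.0899 at Mir290b, from -0.0521 (without PTC12) to 0.0959 at Mir291a, from -0.00434 (without TTF4) to 0.457 at Mir294, from -0.00767 (without TTF4) to 0.568 at Mir295 and from -0.266 to 0.0195 (without TTF4) at Mir302b. The cause was not tested. Of the other results, 68 main values moved by less than the spread between lines or, for counts, stayed close to the main count. A further 257 single-gene values kept their direction and side of the threshold. The lack of coverage limits what low fractions at starts with few CpGs can show.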
